A study of Mus musculus with 4 samples.

Results

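Complement is a set of blood and tissue proteins that tag microbes, immune complexes and dying cells for uptake and recruit leukocytes to them. C1q, assembled from A, B and C chains, recognises the target and starts the classical pathway, while factor B and properdin drive the alternative pathway through cleavage of C3. The small fragments C3a and C5a are sensed by receptors on myeloid cells, and dendritic cells (DC) and macrophages themselves make C1q and several other components. The set covers 9 genes: C1qa, C1qb, C1qc, C3, Cfb, Cfp, C3ar1, C5ar1 and Serping1. Members were all probe sets whose annotation names 1 of these genes as its only symbol, which gave 11 probe sets for 8 genes, of 22626 probe sets and 12393 genes in all. C3 had no probe set named for it in the annotation used and was not analysed here.

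RNA of CD11c-expressing DC grown from C57BL/6 mouse bone marrow was measured on 4 Affymetrix mouse arrays. The groups were NKT-modulated DC, exposed to natural killer T cells (T cells that recognise lipids on CD1d), and immature DC, with 2 arrays each. The labels state neither the age of the mice, nor the length of the modulation, nor how DC were separated from NKT cells. The design text speaks of triplicates and of a repeated experiment, and of an array type larger than the table of 22690 rows, whereas 2 arrays per group were analysed here. How these arrays relate to that scheme, and whether those of a group came from separate cultures, is not stated, so the spread behind every SE and p-value may be technical.

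The values are linear signals, 1 per probe set and array, and their median ran from 129 to 136 in the NKT-modulated arrays and from 146 to 158 in the immature arrays. Changes are differences of quantile-normalized log2(signal + 16), NKT-modulated minus immature, which understates the change of dim genes. A gene was called when limma's adjusted p was under 0.05, and where it had several probe sets the one with the highest mean stood for it. Of 11 DC markers 2 were higher, Batf3 with a change of 1.74 and Irf8 of 0.67, and 1 was lower, Dpp4 with -0.68. The 8 not called had changes from -0.70 to 0.39. Itgax, the gene of CD11c, had signals of 5253 and 4643 in the NKT-modulated arrays and 5442 and 5537 in the immature arrays. No DC marker lay below a signal of 16 in all 4 arrays, but this held for every marker list used here and so does not mark out DC. In the same arrays 9 of 13 T and NKT cell markers were higher and 0 lower. Their summed signal was 6350 and 4612 in the NKT-modulated arrays, against 998 and 970 in the immature arrays. Counts and sums use the brightest probe set of a gene. By it Zap70 and Zbtb16 were not called, while a dimmer probe set of each rose, by 4.46 and 2.81 (adjusted p = 4.06e-04 and 0.00151). The brightest of Zap70 had signals of 622 and 479 in the NKT-modulated arrays and 568 and 469 in the immature arrays. That probe set alone thus made up a large part of the immature sums. The dimmer probe sets of Cd247, a gene called higher, were not called. Bulk RNA was measured, in which fewer cells of a type and less RNA per cell cannot be told apart.

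Complement genes moved in both directions after NKT modulation. The C1q chain genes C1qa, C1qb and C1qc and the C3a receptor gene C3ar1 fell, Cfb rose, and Cfp, C5ar1 and Serping1 were not called. That made 4 of 8 genes lower, where 6.88% of all genes were called lower, and 1 of 8 higher, where 5.99% of all genes were called higher. The members were chosen with earlier results of these data known, so these shares are no test of the set. The 8 genes were also brighter, with a median of the mean log2 values of 9.63 against 7.80 over all genes. The median change of the 8 genes was -0.71, against -0.04 over all genes. The arrays of the groups did not overlap for 7 of the 8, which held for 56.3% of all genes.

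**Figure D1:**
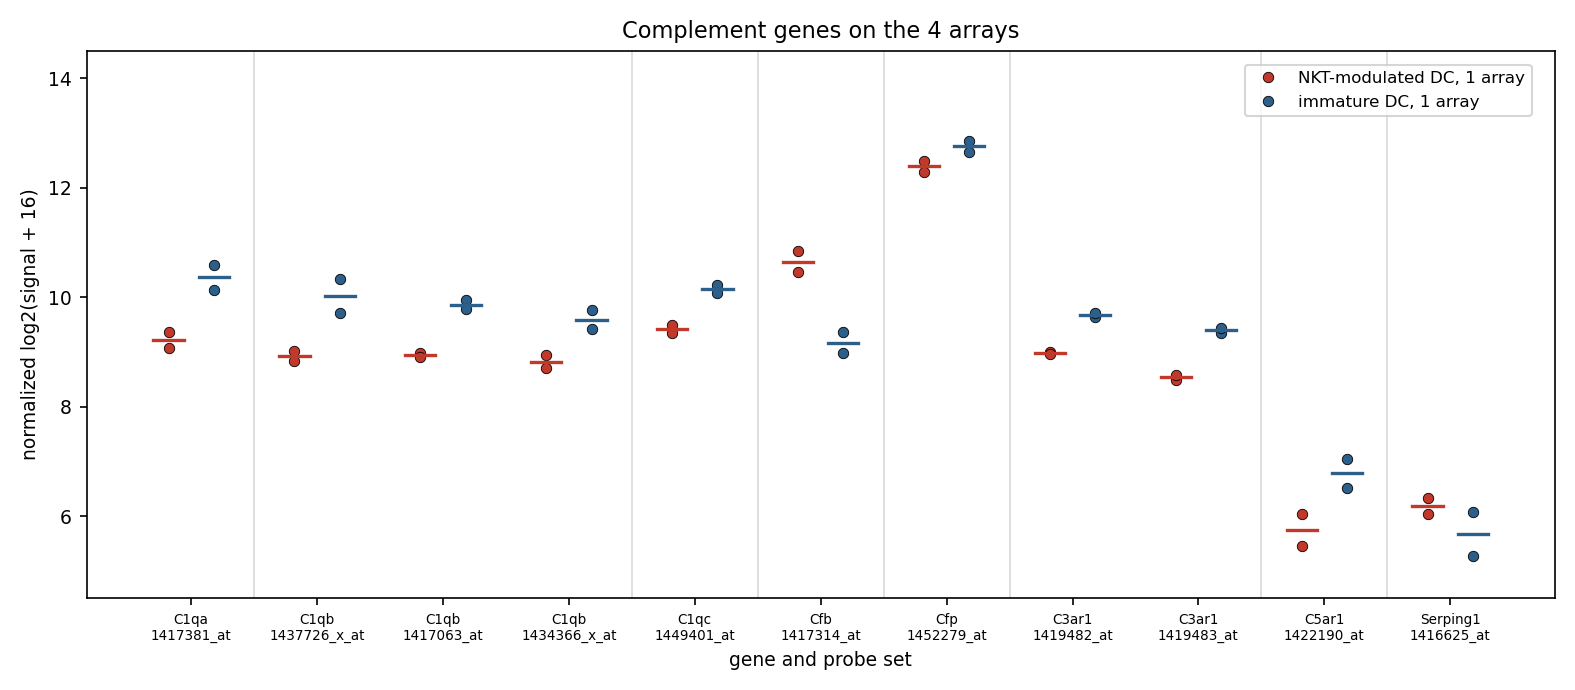
Normalized log2(signal + 16) of the 11 complement probe sets in each array, with NKT-modulated DC left of immature DC, a point per array and a line at the mean of the 2 arrays. The 7 probe sets of C1qa, C1qb, C1qc and C3ar1 lie lower in both NKT-modulated arrays, Cfb lies higher in both, and Serping1 overlaps. Heights of different probe sets are not comparable.

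C1qa, C1qc and C1qb are neighbours on chromosome 4 in the RefSeq annotation, with no other protein-coding gene between them. Because these genes fell together, the 250 bases before the start of C1qb and C1qc, the only C1q genes with a promoter in the RefSeq table used (build GRCm38.p6), are printed here with matches to GAGGAA, the core of the site of the myeloid factor PU.1, in capitals. The region before C3ar1, the receptor gene that fell, is printed with its match to a form of the NF-kB site in capitals.
C1qb, chr4:136886201-136886450, minus strand: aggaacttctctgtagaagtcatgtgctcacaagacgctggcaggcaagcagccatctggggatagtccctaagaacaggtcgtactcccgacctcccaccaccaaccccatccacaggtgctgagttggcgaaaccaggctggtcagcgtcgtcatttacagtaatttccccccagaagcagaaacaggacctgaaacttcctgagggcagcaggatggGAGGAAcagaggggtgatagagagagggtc
C1qc, chr4:136892915-136893164, minus strand: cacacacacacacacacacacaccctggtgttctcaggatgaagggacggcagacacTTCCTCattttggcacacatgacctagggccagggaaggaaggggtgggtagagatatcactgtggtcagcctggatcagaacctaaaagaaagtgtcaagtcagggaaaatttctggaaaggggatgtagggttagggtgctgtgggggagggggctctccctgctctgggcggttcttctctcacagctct
C3ar1, chr6:122856158-122856407, minus strand: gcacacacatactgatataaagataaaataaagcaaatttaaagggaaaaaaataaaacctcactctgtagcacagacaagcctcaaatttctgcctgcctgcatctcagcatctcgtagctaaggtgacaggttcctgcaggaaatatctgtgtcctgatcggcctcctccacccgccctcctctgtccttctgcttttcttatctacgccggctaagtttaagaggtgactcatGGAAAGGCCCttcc

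The match to GAGGAA lay on the strand of the gene in C1qb, 25 to 30 bases before the start, and on the opposite strand in C1qc, 188 to 193 bases before it. Searched on both strands, GAGGAA occurred in 23.3% of 32851 such regions of all genes and in 2 of the 6 member regions in the table; it was added to the search after the values were seen. The match in C3ar1 lay on the opposite strand, 5 to 14 bases before the start, and this form of the NF-kB site occurred in 1.41% of all regions. The interferon-stimulated response element, found in 2.98% of all regions, had no match in the 6 member regions, which were those of C1qb, C1qc, C3ar1, C5ar1, C3 and Cfp. The motifs do not overlap one another in the printed regions, and a match describes the letters only.

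The genes of the C1q chains were lower in both NKT-modulated arrays. C1qa, encoding the A chain, had signals of 488 and 603 in the NKT-modulated arrays and 1477 and 1232 in the immature arrays. Both NKT-modulated arrays lay far below the lower immature array. The change of C1qa was -1.15 ± 0.18 (SE, as for every change, from 2 arrays in each group), with adjusted p = 0.0127. It stood at place 358 from the largest fall among the 22626 probe sets.

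C1qb, encoding the B chain, was measured by 3 probe sets that moved the same way. The brightest had signals of 418 and 461 in the NKT-modulated arrays and 815 and 1396 in the immature arrays, a change of -1.09 ± 0.21 (adjusted p = 0.0244). Its immature arrays were the widest apart of the C1q probe sets. The probe set of intermediate mean had 461 and 429 in the NKT-modulated arrays and 950.3 and 965 in the immature arrays, a change of -0.91 ± 0.11 (adjusted p = 0.00537). Here the arrays of each group lay close together, so the fall stood out more clearly from the replicate spread than in the brightest probe set. The dimmest had 448 and 367 in the NKT-modulated arrays and 665 and 954 in the immature arrays, a change of -0.76 ± 0.16 (adjusted p = 0.0341). The suffix x_at marks probe sets whose probes can also match other transcripts, and the brightest and the dimmest of C1qb carry it. The dimmest lost its call without NKT-modulated replicate 1, NKT-modulated replicate 2 or immature replicate 2 (adjusted p = 0.0776, 0.138 and 0.133), whereas the probe set of intermediate mean kept its call without any 1 of the 4 arrays.

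C1qc, encoding the C chain, had signals of 606 and 657 in the NKT-modulated arrays and 1161 and 1185 in the immature arrays. The arrays of each group were close and the groups well apart. Its change was -0.73 ± 0.11 (adjusted p = 0.0103), at place 1343 from the largest fall among all probe sets. The 95% intervals of the changes ran from -1.59 to -0.71 for C1qa, from -1.60 to -0.59 for C1qb and from -1.0 to -0.47 for C1qc, so they overlapped, and whether the chains differed in their fall was not tested. Leaving out NKT-modulated replicate 1 ended the calls of the 3 genes by their brightest probe sets, with adjusted p = 0.0727 for C1qa, 0.119 for C1qb and 0.0719 for C1qc at changes of -0.99, -0.99 and -0.66. The call of C1qb was also lost without NKT-modulated replicate 2 (adjusted p = 0.0755) and that of C1qc without immature replicate 1 (adjusted p = 0.0560). Without the intensity trend of the variance the adjusted p was 0.0731, 0.0979 and 0.0705 for C1qa, C1qb and C1qc.

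C1q genes are also known as macrophage markers, so macrophage and monocyte markers are given beside them. Of 12 such genes measured, 2 were higher and 3 lower, with a median change of -0.09. Their summed signal was 47102 and 47109 in the NKT-modulated arrays and 46217 and 44766 in the immature arrays. Bright genes weigh most in this sum, such as Lyz2, with 12355 and 12740 in the NKT-modulated arrays and 10860 and 9667 in the immature arrays. Mertk, a receptor for the uptake of dying cells, rose by 1.09 ± 0.09 and Marco, a scavenger receptor, by 0.78 ± 0.10. Ccr2, the chemokine receptor of monocytes, fell by 2.03 ± 0.21, Fcgr1, the high-affinity IgG receptor, by 0.54 ± 0.09 and Cd14 by 0.54 ± 0.08. The 7 genes not called had changes from -0.89 ± 0.30 for Cd163 (adjusted p = 0.132) to 0.20 ± 0.09 for Lyz2 (adjusted p = 0.234). Cd163 was dim, with signals of 27.6 and 33.8 in the NKT-modulated arrays and 56.4 and 96.1 in the immature arrays. Among these 7, Siglec1 had a change of -0.75 ± 0.34 and Cd68 of -0.05 ± 0.09. The 3 probe sets of Csf1r, the receptor of the macrophage growth factor M-CSF, disagreed. The brightest had a change of 0.04 ± 0.10 (adjusted p = 0.857), 1 was called lower at -0.43 ± 0.09 (adjusted p = 0.0328), and the other had -0.34 ± 0.09 (adjusted p = 0.0622). The part of these markers, and of the T and NKT cell markers, in the fall of the C1q genes was not tested.

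Of the alternative pathway, Cfb rose and Cfp was not called. Cfb, the gene of factor B, the protease of the alternative pathway convertase, had signals of 1370 and 1738 in the NKT-modulated arrays and 491 and 725 in the immature arrays. Both NKT-modulated arrays lay above both immature arrays. The change was 1.48 ± 0.18, a 2.79-fold rise with adjusted p = 0.00461, at place 363 from the largest rise among all probe sets. Cfb was called without any 1 of the 4 arrays, at changes from 1.28 to 1.69. The summed T and NKT cell marker signal rose in the same arrays, and its part in the rise of Cfb was not tested.

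Cfp encodes properdin, which stabilises that convertase and is made by myeloid cells. It had signals of 5238 and 5705 in the NKT-modulated arrays and 6128 and 7375 in the immature arrays. The groups did not overlap, but the change of -0.36 ± 0.11 had adjusted p = 0.0984 and a 95% interval from -0.63 to -0.09. Among the 12055 probe sets with a mean normalized log2 value of at least 7, the same change had adjusted p = 0.0335. Under median centring, which shifts the median of all changes to 0.08 where quantile normalization left it at -0.03, the change of Cfp was -0.12 (adjusted p = 0.558).

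**Figure D2:**
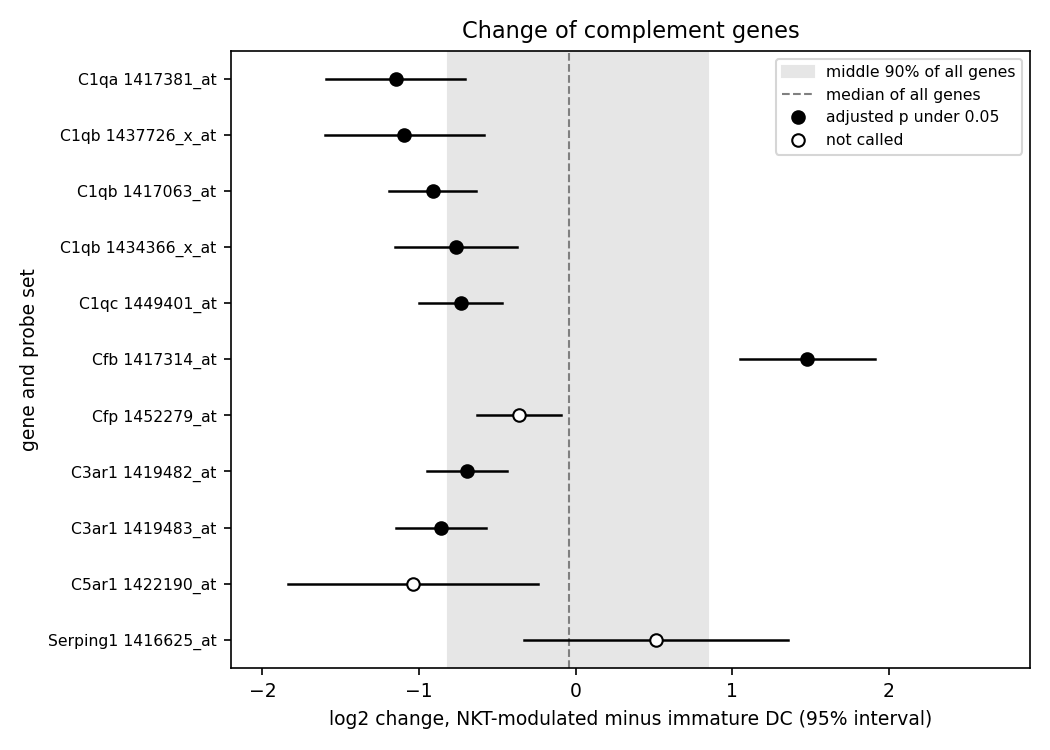
Log2 change of each complement probe set, NKT-modulated minus immature DC, with its 95% interval, over a grey band that holds the middle 90% of all gene changes (-0.81 to 0.85). The 7 probe sets of C1qa, C1qb, C1qc and C3ar1 lie left of 0 with filled points. Of these, C1qc (-0.73), the brighter probe set of C3ar1 (-0.69) and the dimmest of C1qb (-0.76) lie within the band. Cfb lies right of the band at 1.48. The open points of Cfp, C5ar1 and Serping1 mark changes that were not called, and that of C5ar1 (-1.04) lies left of the band.

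Of the anaphylatoxin receptor genes, C3ar1 fell and C5ar1 was not called. C3ar1, the receptor of C3a, was measured by 2 probe sets. The brighter had signals of 467 and 444 in the NKT-modulated arrays and 775 and 919 in the immature arrays. Its change was -0.69 ± 0.11 (adjusted p = 0.0109), at place 1532 from the largest fall among all probe sets. The dimmer had 325 and 337 in the NKT-modulated arrays and 634 and 767 in the immature arrays, a change of -0.86 ± 0.12 (adjusted p = 0.00738). In both probe sets the groups were apart by far more than the arrays within them. For the brighter one the call was lost without NKT-modulated replicate 1 (adjusted p = 0.0634), NKT-modulated replicate 2 (0.0641) or immature replicate 2 (0.0612), at changes from -0.70 to -0.67. For the dimmer one it was lost without NKT-modulated replicate 1 (adjusted p = 0.0539) or immature replicate 2 (0.0506).

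C5ar1, the main receptor of C5a, was dim, with signals of 29.5 and 46.4 in the NKT-modulated arrays and 76.3 and 127 in the immature arrays. The groups did not overlap, but arrays within each differed by more than 1.5 times. The change of -1.04 ± 0.33 had adjusted p = 0.109 and a 95% interval from -1.84 to -0.24. It was -1.31 with a pseudocount of 1 and -0.63 with 64, and no alternative called it (adjusted p from 0.0763 to 0.387). Serping1, encoding the C1 inhibitor that blocks the proteases bound to C1q, was dim as well. Its signals were 51.7 and 59.9 in the NKT-modulated arrays and 23.1 and 51.7 in the immature arrays, so the groups overlapped. The change was 0.51 ± 0.35 (adjusted p = 0.437), with a 95% interval from -0.33 to 1.36. Without immature replicate 1 it was 0.11.

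Other genes of the complement system were mostly not called. Of 44 listed genes outside the set, 32 were measured. Of these 2 were higher and 3 lower, shares not far from the 5.99% and 6.88% of all genes, and the median change was 0.01. At an unadjusted p under 0.05, limma gave 5 higher and 4 lower of the 32, and 1429 higher and 2058 lower of all 12393 genes. C1s1, a protease of the C1 complex, rose by 1.76 ± 0.37 (adjusted p = 0.0326), with signals of 72.8 and 102 in the NKT-modulated arrays and 25.5 and 7.16 in the immature arrays. This change moved with the pseudocount, from 2.59 at 1 to 0.95 at 64, and the call was lost without NKT-modulated replicate 1, NKT-modulated replicate 2 or immature replicate 2 (adjusted p = 0.0673, 0.118 and 0.134). Its partner protease gene C1ra, singled out after its values were seen, had a change of 0.66 ± 0.16 (adjusted p = 0.0502; 0.0163 to 0.205 under the alternatives), from signals of 301 and 330.3 in the NKT-modulated arrays against 201 and 253 in the immature arrays. The third gene measured of the classical start, C2, had 0.49 ± 0.42 (adjusted p = 0.555).

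Of the other receptor genes, 2 of 6 fell and 0 rose. Cd93, once described as a C1q receptor, had signals of 561 and 673 in the NKT-modulated arrays and 1779 and 1579 in the immature arrays, a fall of 1.3 ± 0.16 (adjusted p = 0.00502). The dimmer probe set of Cd93 had a change of -0.60 with adjusted p = 0.327. Itgam, the alpha chain of complement receptor 3, fell by 0.71 ± 0.14 (adjusted p = 0.0276), with signals of 326 and 269 in the NKT-modulated arrays and 512 and 632 in the immature arrays. The call of Itgam was lost without any 1 of the 4 arrays (adjusted p from 0.0634 to 0.132). Its partner Itgb2 had a change of -0.16 ± 0.10 and Itgax, the alpha chain of complement receptor 4, of -0.19 ± 0.08 (adjusted p = 0.403 and 0.204); under median centring both had changes above 0, of 0.09 and 0.03.

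Among 11 regulators measured, Cd55 rose and 10 were not called. Cd55, encoding decay-accelerating factor, which dismantles convertases on the cell surface, had signals of 123 and 93.5 in the NKT-modulated arrays and 14.0 and 10.4 in the immature arrays, a rise of 2.20 ± 0.26 (adjusted p = 0.00461). Its second probe set rose by 1.80 (adjusted p = 0.00946). With the immature signals below 16 the size of this change rests on the pseudocount, at 3.13 with 1 and 1.22 with 64. T cells also express Cd55, and the part of the T and NKT cell markers in its rise was not tested. The changes of the other regulators lay between -0.35 and 0.69. Of 6 lectin pathway genes, Colec12, a scavenger receptor of the collectin family, fell by 0.56 ± 0.12 (adjusted p = 0.0353), a call lost without any 1 of the 4 arrays (adjusted p from 0.0765 to 0.165). Of 6 terminal pathway genes 0 were called by limma. At an unadjusted p under 0.05, 1 of the 6 was lower, as were 2058 of all 12393 genes. The signals of the 6 lay between 1.76 and 43.8.

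**Figure D3:**
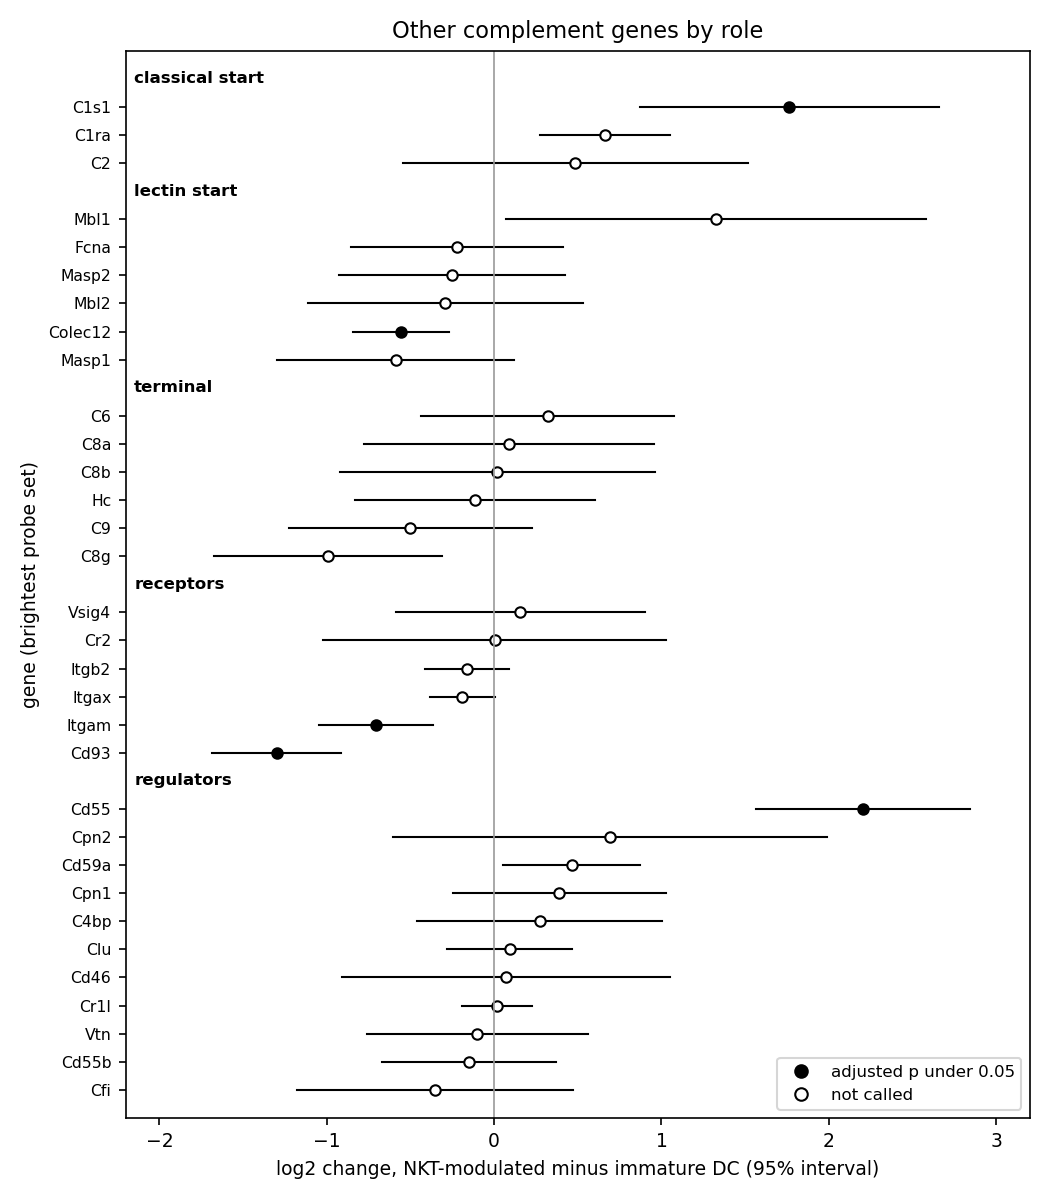
Log2 change, NKT-modulated minus immature DC, of the 32 other complement genes measured, grouped by role, with 95% intervals; filled points passed an adjusted p under 0.05. The 5 filled points are C1s1 and Cd55 on the right and Colec12, Itgam and Cd93 on the left, and the intervals of most other genes cross 0.

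The changes of the 8 genes kept their sign under all alternatives run, while the calls of the lower genes did not hold throughout. Pseudocounts of 1 and 64 and the 3 other scalings each left 4 of 8 genes called lower. In those fits 713 to 1024 of all 12393 genes were called lower. With dim probe sets left out, 5 of the 6 genes tested were called lower, Cfp among them, where 1165 of 7208 genes were. Without the intensity trend 0 were called lower by the brightest probe set, where 271 of 12393 genes were. A dimmer probe set of C1qb (adjusted p = 0.0475) and 1 of C3ar1 (0.0467) kept its call there. Leaving out 1 array ended some or all of the calls, as given gene by gene above. Without NKT-modulated replicate 1 the changes were -0.99 for C1qa and C1qb, -0.66 for C1qc and -0.70 for C3ar1. At an unadjusted p under 0.05, limma gave 5 of 8 genes lower without the intensity trend, where 1742 of all 12393 genes were lower. With the trend it gave 6 of 8 over all 4 arrays, where 2058 of all genes were lower. Cfb was called higher under each pseudocount and scaling, with dim probe sets left out and without the trend. At an adjusted p under 0.001, the size of threshold that the design text names, 0 of 8 genes were called. Of all 12393 genes 131 were higher and 22 lower there. With the same threshold on the unadjusted p, Cfb was higher and 3 genes lower, where 476 of all genes were higher and 401 lower.

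**Figure D4:**
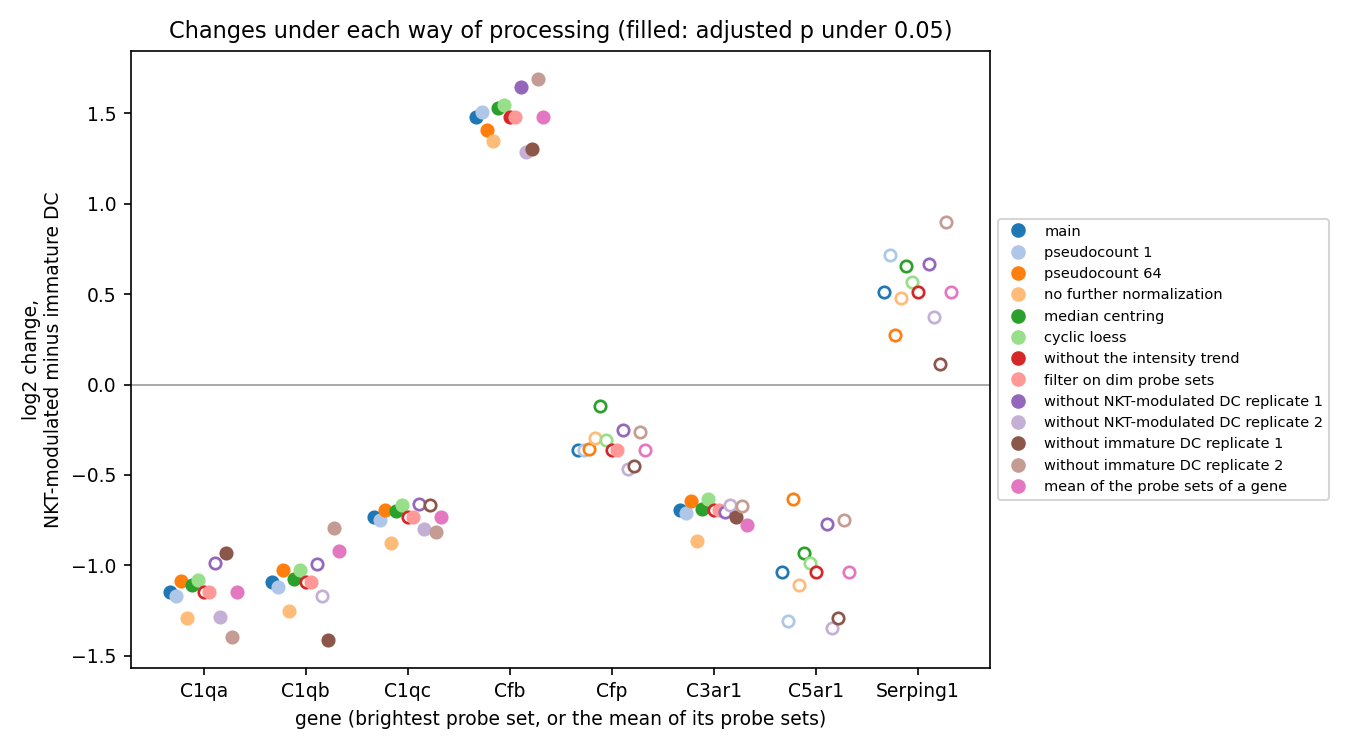
Log2 change of the 8 complement genes under each way of processing the arrays, NKT-modulated minus immature DC; a filled point has an adjusted p under 0.05, and the settings that only move the threshold are not drawn. All points of C1qa, C1qb, C1qc, C3ar1, C5ar1 and Cfp lie below 0 and all of Cfb and Serping1 above it, and Cfb is filled in each.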

How the data were processed

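Array images were analysed by the authors with GCOS, Affymetrix's software, per the submitters' processing notes. The sources used here name neither the version nor the method of summary and scaling. The deposited intensities are linear, 1 per probe set and array, although the design text speaks of a log transformation. The members and gene lists were chosen with earlier results of these data known. Of 22690 rows, 64 control probe sets were left out. Of the rest, 20380 had 1 gene symbol in the platform annotation, 691 had several and 1555 were unnamed here; 20351 symbols were updated by gene ID through RefSeq (GRCm38.p6, names and gene order only). Signals were turned into log2(signal + 16), quantile normalized and fitted by group in limma 3.58.1 (R 4.3.3), using lmFit and eBayes with the intensity trend and two-sided tests. The fit had 2 residual and 4.13 prior degrees of freedom, and p-values were adjusted by Benjamini-Hochberg over all 22626 probe sets. The steps were tested on simulated data. Present or absent calls were not used. Precision is limited by the number of arrays. All probe sets of the members are described, and of other complement genes those called. Alternatives were the pseudocount, the scaling, the trend, a filter on dim probe sets, the threshold, leaving out each array and averaging the probe sets of a gene; the unadjusted threshold was added after seeing the data.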

Additional observations from a re-analysis of the deposited data

How the results depend on the processing

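No paired analysis was possible because the groups share no replicate numbers in the labels. Of 12393 genes, 742 were higher and 853 lower, so that 46.5% of calls were higher, against 35.2% without further normalization, 56.3% under median centring and 54.1% under cyclic loess. Without the intensity trend, 625 probe sets were higher and 420 lower (1212 and 1289 with it), as were 382 and 271 genes; 0 member genes were lower, and of the other complement genes 1 was higher and 1 lower. With dim probe sets left out, 1 other complement gene was higher, of the 9 that remained. At an adjusted p under 0.001, 197 probe sets were higher and 36 lower, and 131 and 22 genes; 0 members were higher and 0 lower, and likewise 0 and 0 of the other complement genes. At an unadjusted p under 0.001, 759 probe sets were higher and 586 lower, and 476 and 401 genes, and 1 and 1 of the other complement genes. Leaving out 1 array at a time gave 624 to 822 probe sets higher and 446 to 625 lower, 393 to 508 genes higher and 304 to 405 lower, 1 member gene higher each time and 0 to 3 lower, and 1 to 2 other complement genes higher and 1 lower each time; fewer arrays leave fewer degrees of freedom, and a lone array is assumed to vary like the others. The cause of the other differences was not tested. No member reversed its direction. C5ar1 and Serping1 did not pass the filter on dim probe sets and have no value there; 9 of the 11 member probe sets passed it.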

Other observations

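Single genes of other lists stood out in the same arrays and were chosen after their values were seen. Cxcr2, a chemokine receptor known from neutrophils, had signals of 531 and 570.03 in the NKT-modulated arrays and 72.7 and 88.0 in the immature arrays, a change of 2.69 ± 0.17 (adjusted p = 5.35e-04), while Elane and Mpo, genes of neutrophil granules, had changes of -0.02 and 0.15 (adjusted p = 0.981 and 0.823). Of 11 neutrophil markers 3 were higher and 0 lower, with a median change of 0.62. Besides Cxcr2 these were Ngp, at 0.94 ± 0.19 (adjusted p = 0.0301), and S100a8, at 0.62 ± 0.14 (adjusted p = 0.0446). The 8 neutrophil markers not called had changes from -0.02 for Elane to 1.01 for Ltf, also a granule gene (adjusted p = 0.127). Among them S100a9 had a change of 0.98 (adjusted p = 0.0615) and Lcn2 of 0.54 (adjusted p = 0.222). The summed signal of the neutrophil markers was 2379 and 2265 in the NKT-modulated arrays, against 1171 and 1458 in the immature arrays. Of 6 mast cell markers 0 were higher, and Kit, the receptor of stem cell factor, was lower, with a change of -0.88 ± 0.18 (adjusted p = 0.0281). The dimmer probe set of Kit was not called, with a change of -0.46 (adjusted p = 0.347). Cd79b, a chain of the B cell receptor complex, had signals of 270.1 and 209.8 in the NKT-modulated arrays and 35.3 and 32.0 in the immature arrays, a change of 2.47 ± 0.23 (adjusted p = 0.00206), and 0 of the other 5 B cell markers measured were called.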
